A study of Mus musculus with 8 samples.

Results

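The plakophilins and their partners in the desmosome were followed in AtT20 cells, a mouse pituitary tumor cell line of corticotrophs that secretes ACTH, with and without HX630, a synthetic agonist of the RXRs. The 8 genes were Pkp1, Pkp2, Pkp3, Pkp4, Dsp, Jup, Dsc2 and Dsg2, chosen by name, and they were represented by 10 of the 39429 probes on the array and by 8 of the 19751 gene symbols that could be paired with a probe. Each of 4 control samples and 4 HX630 samples (10 μM, 48 hr) was read on a 1-color Agilent array of its own. The control samples were untreated with HX630, and both groups were the same cell line, grown in multiwell plates and kept in medium with a low share of stripped serum. The labels do not say whether the samples of a group were separate cultures, so the p-values measure only the spread between these samples.

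Desmosomes are spot junctions that tie the intermediate filaments of neighboring cells together. The desmosomal cadherins, desmogleins such as Dsg2 and desmocollins such as Dsc2, cross the membrane and bind the cadherins of the next cell. Plakoglobin (Jup) and the plakophilins Pkp1 to Pkp3, proteins with armadillo repeats, sit on the cadherin tails, and desmoplakin (Dsp) links them to the filaments. Pkp4 (p0071) is a related armadillo protein found mainly at adherens junctions, and plakophilins also occur free of junctions, in the nucleus and the cytoplasm. Dsg2 and Dsc2 are the widespread cadherins of simple epithelia, whereas Pkp1 is best known from stratified epithelia such as the epidermis.

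All levels below are on the log2 scale, with the processed signal of a probe divided by the 75th percentile of its array, so that 0 stands for that percentile, and log2 fold changes are differences of these levels, HX630 minus control. A probe was tested when at least 4 of the 8 arrays showed it well above background, as 28552 probes were, and called when limma gave a Benjamini-Hochberg adjusted p below 0.01 with a fold change above 1.5. Between 69.7% and 73.5% of the probes of an array were well above background, and no spot was saturated. Across probes, arrays of one group correlated at 0.994 to 0.998 and arrays of different groups at 0.978 to 0.984. The control arrays shared 1 slide and 1 scan, and the HX630 arrays shared the other slide and scan, so slide and scan cannot be told apart from treatment. Of the corticotroph markers, Pomc, the ACTH precursor, had a level of 8.03 ± 0.18 (SD, n = 4) in control cells and 7.57 ± 0.041 (SD, n = 4) in HX630-treated cells, and 7 of 8 markers were tested, while the vasopressin receptor gene Avpr1b was well above background on no array.

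Of the 10 probes, 7 were tested, and they stood for 6 of the 8 genes. Pkp1 was up-regulated 3.03-fold, which was 1 probe called up against 7.46% of all tested probes. No probe of the 8 genes was called down, against 11.2% of all tested probes. Without the fold threshold, at an adjusted p below 0.01 alone, 1 probe was higher with HX630, against 20.2% of all tested probes, and 2 were lower, one of Dsp and one of Dsg2, against 25.4%. Among the 7 tested probes, the same 3 were those whose groups did not overlap. Of them, 1 had all HX630 arrays higher (24.4% of all tested probes) and 2 had all HX630 arrays lower (31.3%). The levels of the untested Dsp probe A_51_P201884 did not overlap either, with HX630 lower, but most of them were at background. These counts were not tested against the shares over all probes. The median log2 fold change was 0.000068 over the 7 probes and -0.056 over all tested probes.

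**Figure D1:**
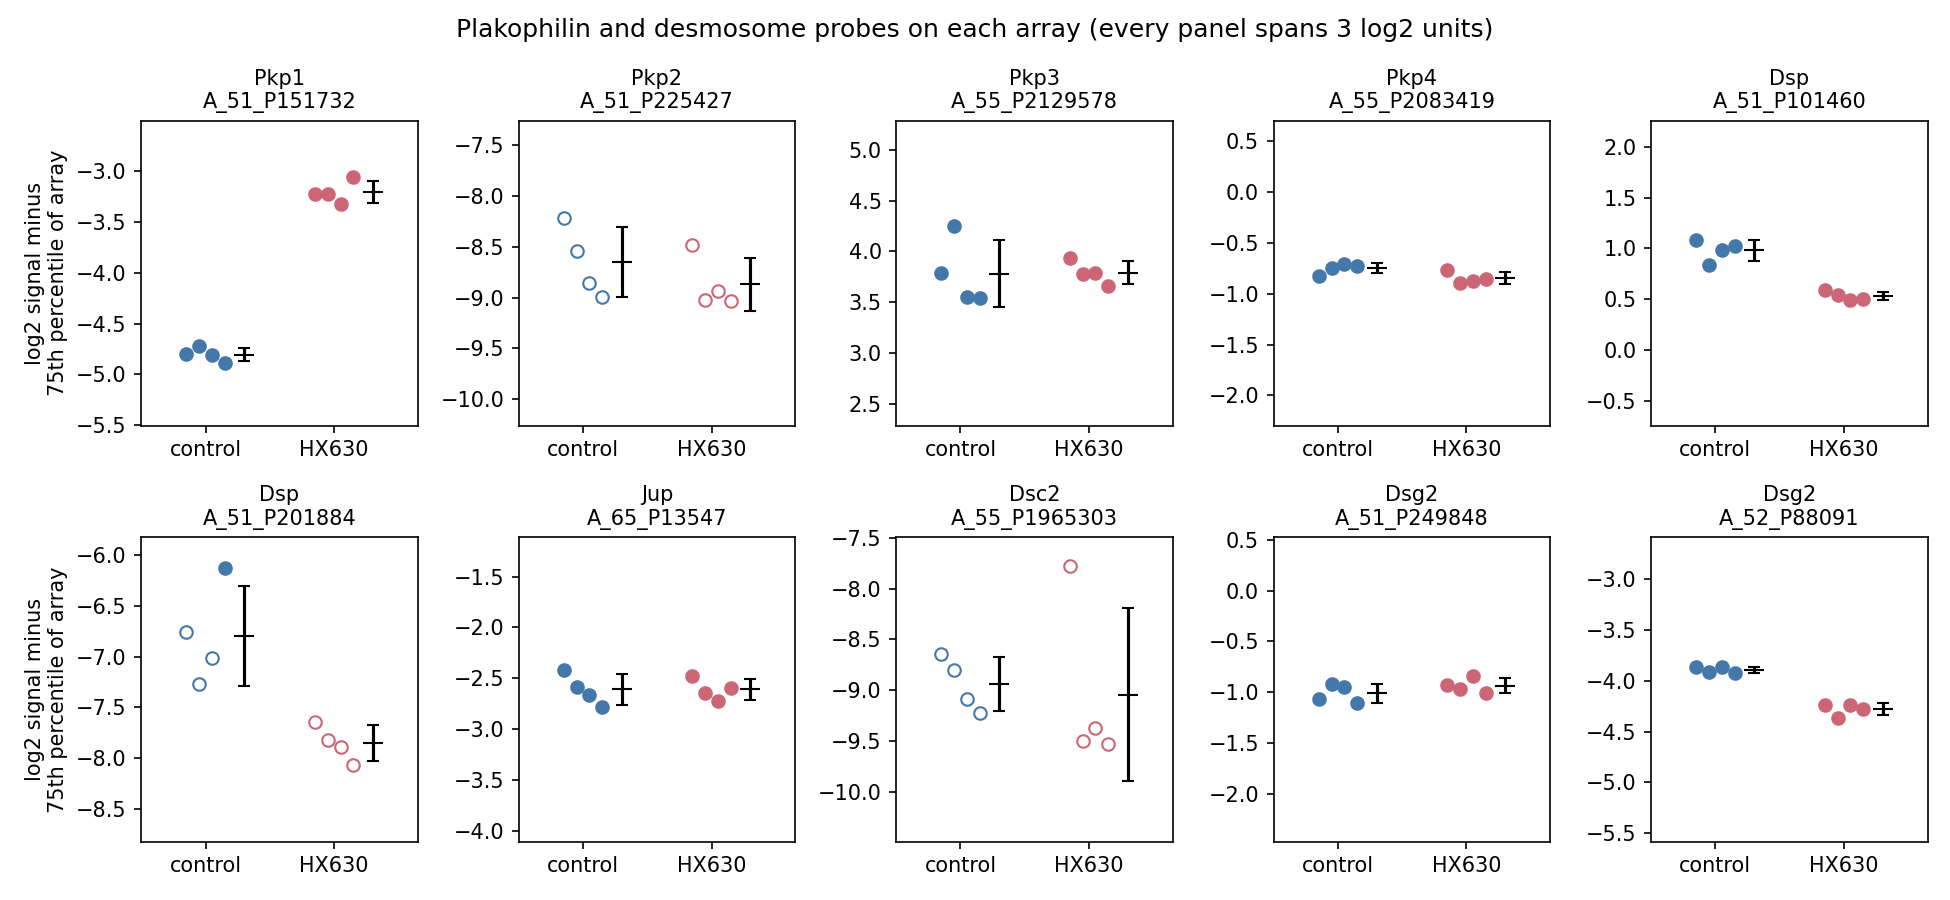
Level of each of the 10 probes on each array, on the log2 scale relative to the 75th percentile of the array; each point is 1 array, filled where the probe was well above background and open where it was not, and the bar gives the mean and SD of the 4 arrays. The HX630 arrays lie clear above the control arrays for Pkp1, from -3.32 to -3.06 against -4.88 to -4.72, and clear below them for Dsp probe A_51_P101460 and Dsg2 probe A_52_P88091.

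Pkp1, which clusters desmosomal cadherins and desmoplakin at the membrane, was measured by 1 probe, A_51_P151732. Its levels were -4.80, -4.72, -4.81 and -4.88 on control arrays 1 to 4 and -3.22, -3.22, -3.32 and -3.06 on HX630 arrays 1 to 4. Each HX630 array was above each control array, and the gap between the groups was far wider than the range within either. The means were -4.80 ± 0.066 (SD, n = 4) and -3.20 ± 0.11 (SD, n = 4). The log2 fold change was 1.60 with an SE of 0.063, a 95% interval of 1.45 to 1.75 and an adjusted p of 5.97e-07 in limma. In the two-sided exact permutation test over all 70 regroupings of the arrays, p was 0.0286, the smallest that 4 arrays against 4 can give. The rise was the 210th largest among the tested probes, and 2.25% of them had a larger change in either direction.

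The Pkp1 signal was dim. Before scaling, its intensity was 48.0 to 66.4 on the control arrays and 183 to 228 on the HX630 arrays, and all 8 arrays were well above background. The dimmest probe to be well above background had an intensity of 8.92 to 15.2 on a control array and of 12.2 to 18.1 on an HX630 array. With normexp background correction of the raw median signal, the log2 fold change of Pkp1 was 0.87 (adjusted p = 0.00346 in limma), smaller by over 1.5 times yet still called. In RNA from a whole culture, more Pkp1 RNA in each cell and more cells that contain it cannot be told apart.

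Pkp2, the plakophilin of simple epithelia and heart muscle, was well above background on 0 of the 4 control arrays and 0 of the 4 HX630 arrays. Its intensities were 3.31 to 4.47 on the control arrays and 3.53 to 5.05 on the HX630 arrays, below those of the dimmest probes detected, and no fold change is given. The probe gives only a bound on the Pkp2 signal in both groups.

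Pkp3, a plakophilin of most epithelia, had levels of 3.79, 4.25, 3.55 and 3.54 on the control arrays and 3.94, 3.77, 3.79 and 3.66 on the HX630 arrays. The groups overlapped, control array 2 was the highest of the 8, and the means were 3.78 ± 0.33 (SD, n = 4) and 3.79 ± 0.11 (SD, n = 4). The log2 fold change of 0.0088 had an SE of 0.158, the largest among the tested plakophilin and desmosome probes, and a 95% interval of -0.36 to 0.38 (limma, adjusted p = 0.966). Changes of up to about that size in either direction were not detectable with these arrays. With the threshold of an adjusted p below 0.01, somewhat larger ones could be missed as well.

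Pkp4 had levels of -0.82, -0.74, -0.71 and -0.72 on the control arrays and -0.77, -0.89, -0.88 and -0.85 on the HX630 arrays. HX630 array 1 lay among the control arrays and the other HX630 arrays lay below them. The means were -0.75 ± 0.052 (SD, n = 4) and -0.85 ± 0.057 (SD, n = 4), and the log2 fold change was -0.099 (SE 0.043, 95% interval -0.20 to 0.0019), which did not pass the test (limma, adjusted p = 0.084). Scaled to the spike-in probes, the sign turned, to 0.12.

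The change in Pkp1 was also set against each other tested probe of the genes within the same array, which removes any scaling between arrays. The log2 fold change of Pkp1 exceeded that of Pkp3 by 1.59 (SE 0.168), that of Pkp4 by 1.70 (SE 0.074) and that of Jup by 1.60 (SE 0.086). It exceeded that of Dsp probe A_51_P101460 by 2.05 (SE 0.098) and those of the Dsg2 probes by 1.52 (SE 0.092) and 1.99 (SE 0.076). In each pair the 4 HX630 arrays and the 4 control arrays did not overlap, and each of 7 comparisons, with that between the Dsg2 probes below, had a two-sided exact permutation p of 0.0286, which was also the value adjusted over the 7. Since Pkp1 stands in 6 of them, these comparisons share its values and are not independent.

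**Figure D2:**
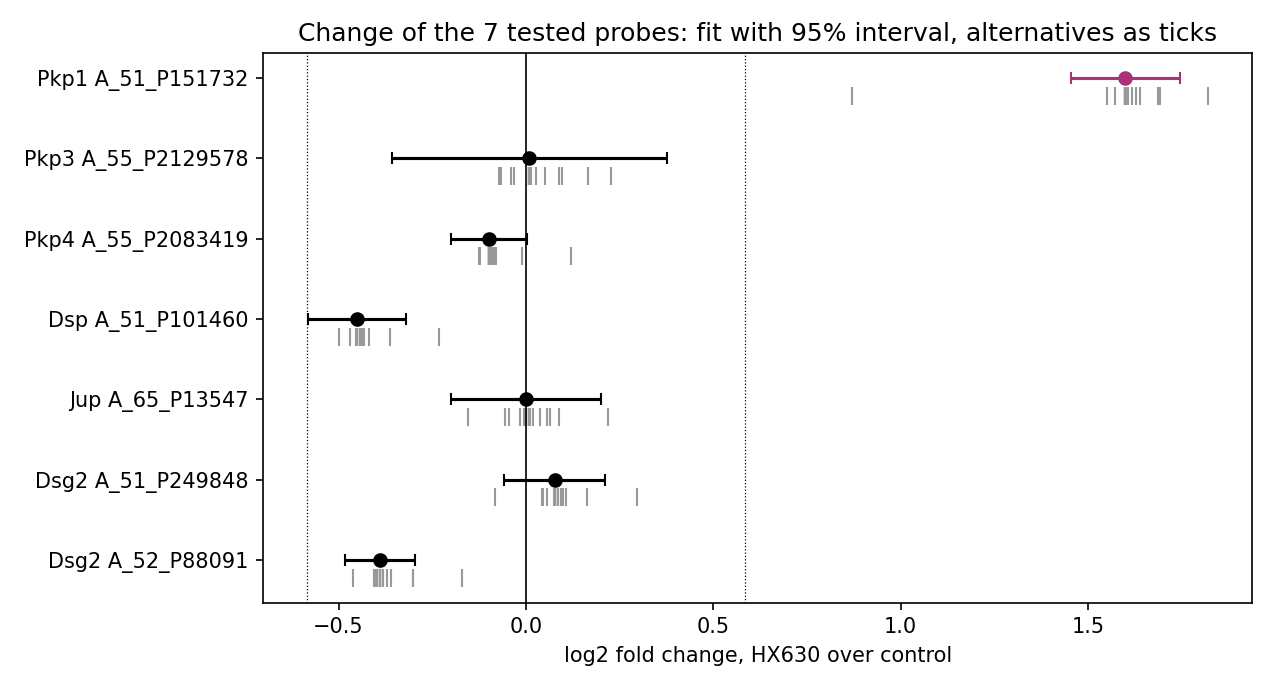
Log2 fold change, HX630 over control, of the 7 tested probes, with the 95% interval from limma; the gray ticks below each point are the values under alternative processing, each array left out in turn included, and the dotted lines mark a fold change of 1.5. Pkp1 is the only one of the 7 beyond a dotted line, at 1.60, with its lowest tick at 0.87 from normexp background correction.

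Desmoplakin, the linker between the plakophilins and the filaments, was measured by probe A_51_P101460, printed at 10 spots on each array. The levels averaged over the spots were 1.08, 0.84, 0.98 and 1.02 on the control arrays and 0.59, 0.54, 0.49 and 0.50 on the HX630 arrays. The lowest control array was above the highest HX630 array. The means were 0.98 ± 0.10 (SD, n = 4) and 0.53 ± 0.043 (SD, n = 4), so that the signal with HX630 was 73.2% of that in control cells. The log2 fold change was -0.45 (SE 0.056, 95% interval -0.58 to -0.32), with an adjusted p of 0.000258 in limma, but it was smaller than the fold threshold and Dsp was not called.

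The 10 spots were also read separately. The difference between the groups was between -0.62 and -0.38 at the single spots, and at each of the 10 all HX630 arrays were below all control arrays. Within an array, the SD over the spots was 0.058 to 0.083. The spots share the RNA of their array and are not replicates of the treatment. Scaled to the spike-in probes, the log2 fold change of Dsp was -0.23 (limma, adjusted p = 0.0155), and it no longer passed the p threshold. Relative to the median of all tested probes it was -0.40 under both scalings. These values are equal by construction, since each scaling subtracts 1 value per array, and their equality adds no support.

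**Figure D3:**
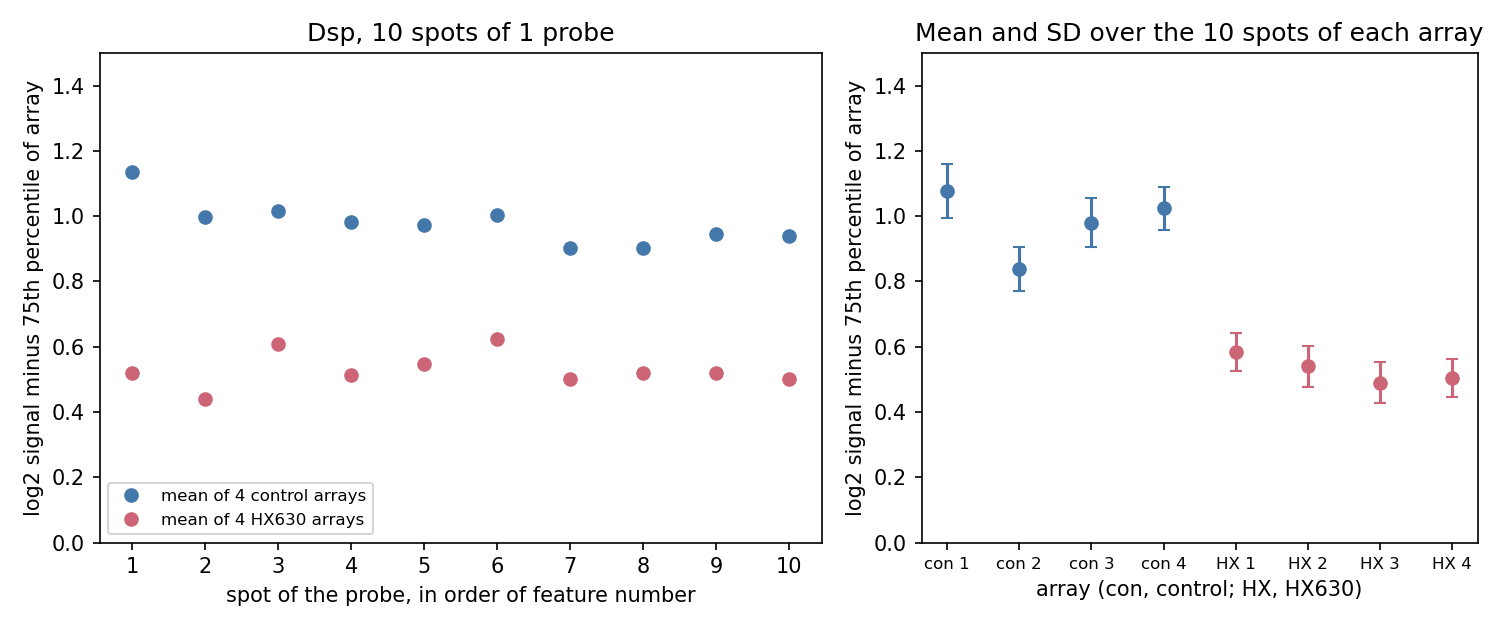
Dsp probe A_51_P101460 by spot (left; means of the 4 control and the 4 HX630 arrays) and by array (right; mean and SD over the 10 spots), on the log2 scale relative to the 75th percentile of the array. At every spot the HX630 mean lies below the control mean, by 0.38 to 0.62, and every HX630 array lies below every control array.

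The other Dsp probe, A_51_P201884, was well above background on 1 of the 4 control arrays and 0 of the 4 HX630 arrays and was not tested. Its intensities were 12.3, 8.79, 14.4 and 24.1 on the control arrays and 9.05, 8.15, 7.73 and 7.10 on the HX630 arrays, with control array 4 the one above background. The means were -6.79 ± 0.49 (SD, n = 4) and -7.85 ± 0.18 (SD, n = 4). Control arrays 1 to 3 and all HX630 arrays give only a bound, so no fold change is given for this probe.

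Plakoglobin (Jup), which desmosomes and adherens junctions share, had levels of -2.42, -2.58, -2.66 and -2.78 on the control arrays and -2.48, -2.64, -2.72 and -2.60 on the HX630 arrays. The HX630 values lay inside the control range, and both means were -2.61, with SDs of 0.15 and 0.10 (n = 4 each). The log2 fold change was 0.000068 (SE 0.086), with a 95% interval of -0.20 to 0.20. A change in the range of that interval would not have been detected. Since the threshold was an adjusted p below 0.01, somewhat larger changes could also have been missed. Scaling to the spike-in probes moved the value to 0.22 (limma, adjusted p = 0.0337), and it was not called there either.

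Dsg2, the desmoglein found in every tissue with desmosomes, had 2 probes that differed from each other. Probe A_51_P249848 had levels of -1.07, -0.92, -0.95 and -1.10 on the control arrays and -0.93, -0.97, -0.84 and -1.0 on the HX630 arrays, and the groups overlapped. Its log2 fold change was 0.076 (SE 0.057, 95% interval -0.057 to 0.21), which did not pass the test (limma, adjusted p = 0.287). Probe A_52_P88091 had levels of -3.87, -3.91, -3.86 and -3.92 on the control arrays and -4.24, -4.37, -4.24 and -4.28 on the HX630 arrays, with no overlap. Its signal with HX630 was 76.3% of that in control cells, a log2 fold change of -0.39 (SE 0.040, 95% interval -0.48 to -0.30; limma, adjusted p = 9.18e-05), below the fold threshold and therefore not called.

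Within an array, the log2 fold change of probe A_51_P249848 exceeded that of probe A_52_P88091 by 0.47 (SE 0.055), with no overlap between the groups (two-sided exact permutation test, p = 0.0286). Both probes carry the same RefSeq transcript in the array's design, and a single value for Dsg2 is therefore not given. Scaled to the spike-in probes, probe A_51_P249848 was at 0.30 and passed the p threshold (limma, adjusted p = 0.00256). Probe A_52_P88091 was at -0.17 there and no longer passed it (limma, adjusted p = 0.0199). Neither was called under that scaling. The level of one probe was not set against the level of the other, since probes differ in how brightly they label.

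Dsc2, the desmocollin usually found together with Dsg2, was well above background on 0 of 8 arrays. Its intensities were 2.81 to 3.42 on the control arrays, and on the HX630 arrays 8.24 on array 1 and 2.55 to 2.75 on the other 3. Only a bound can be given for both groups, and no fold change was calculated.

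Around these genes, 6 lists of other junction genes with 87 entries held 69 tested genes, of which 10 were called up and 8 down. A gene with more than 1 tested probe was represented by the brightest. Over all 15319 genes tested in this way, 8.38% were called up and 11.2% down, and the median log2 fold change was -0.034.

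The list of other desmosome genes held the remaining desmogleins and desmocollins, the plakin linkers and proteins of the desmosome's surface. Of its 11 genes 5 were tested, with 1 called up, 0 called down and a median log2 fold change of -0.35. Perp, a p53 target that encodes a membrane protein of desmosomes, was up-regulated from 0.64 ± 0.040 (SD, n = 4) to 1.79 ± 0.055 (SD, n = 4), with a log2 fold change of 1.15 (SE 0.040). Ppl (periplakin) and Evpl (envoplakin), which partner in the cornified envelope, had log2 fold changes of -0.55 and 0.24, and Cdsn (corneodesmosin) and Dsg1c had values of -0.35 and -0.67, none of them called, and with Perp these are all the tested genes of the list. Dsc1, Dsc3, Dsg1a, Dsg1b, Dsg3 and Dsg4 were well above background on no array. With Dsc2, 7 of the desmosomal cadherin genes looked at were therefore at background in both groups, and Dsg2 and Dsg1c were the ones tested.

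The intermediate filament genes and their linkers, to which desmosomes attach, had 16 tested of 20 listed, with 2 called up, 4 called down and a median log2 fold change of 0.00063. Both called up were keratins of simple epithelia. Krt7 rose from 2.26 ± 0.100 (SD, n = 4) to 4.39 ± 0.051 (SD, n = 4), with a log2 fold change of 2.13 (SE 0.057), and Krt8 rose by 0.76 (SE 0.050), while Krt18, the partner of Krt8, had a log2 fold change of 0.11 and was not called (limma, adjusted p = 0.0522). Eppk1 (epiplakin), a keratin-binding plakin, fell from -2.78 ± 0.18 (SD, n = 4) to -5.85 ± 0.24 (SD, n = 4), with a log2 fold change of -3.07 (SE 0.134). With normexp background correction its value was -2.30, smaller by over 1.5 times in fold and still called. The neurofilament genes Nefm and Nefl fell by 1.29 and 0.92 on the log2 scale. Des, the desmin of muscle, had a log2 fold change of -1.55 and was called down, but only 1 of the 4 HX630 arrays was well above background, so the size of the difference rests in part on signals at background. With normexp background correction it was -1.03. Krt8, Krt18 and Nefl were named after their values were seen.

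In the adherens junction list, 14 of 16 genes were tested, 4 were called up and 0 down, and the median log2 fold change was 0.36. The genes called up were Nectin3, a cell adhesion molecule of the immunoglobulin family (log2 fold change 1.10, SE 0.056), Ctnna2, the α-catenin of neurons (0.83, SE 0.071), Arvcf, an armadillo protein related to p120 catenin (0.78, SE 0.035), and Cdh2, N-cadherin (0.72, SE 0.035). Cdh1, E-cadherin, was well above background on no array. Ctnnb1, β-catenin, the close relative of Jup, had a log2 fold change of 0.022 (SE 0.039), and was named after its value was seen.

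Of the tight junction genes, 16 of 17 were tested, 2 were called up and 1 down, and the median log2 fold change was 0.027. Ocln (occludin) rose by 1.00 (SE 0.057) and Cgn (cingulin) by 0.61 (SE 0.063) on the log2 scale, while Tjp3 (ZO-3), a scaffold of tight junctions, fell by 1.37 (SE 0.037). The Cgn call was lost without HX630 array 1, with a log2 fold change of 0.58. Of the gap junction genes, 4 of 9 were tested, with Gjb1 (connexin 32) called down, from 1.46 ± 0.13 (SD, n = 4) to -0.33 ± 0.14 (SD, n = 4), 0 called up and a median of -0.25. Gja1 (connexin 43), named like Cdh1 after its values were seen, was well above background on no array.

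The transcription factors and splicing factors that control epithelial junction genes were all tested, 14 of 14, with 1 called up, 2 called down and a median log2 fold change of -0.22. Snai1 (Snail), a repressor of epithelial genes, fell from -2.19 ± 0.038 (SD, n = 4) to -4.21 ± 0.18 (SD, n = 4), with a log2 fold change of -2.02 (SE 0.087). Zeb2, a repressor of the same group of genes, rose from -5.44 ± 0.19 (SD, n = 4) to -4.05 ± 0.22 (SD, n = 4), with a log2 fold change of 1.40 (SE 0.131). With normexp background correction the Zeb2 value was 0.65 and the call was lost (limma, adjusted p = 0.0204). Elf3, an epithelial ETS factor, had a log2 fold change of -0.67 (SE 0.116), and its call was lost when arrays were scaled to their median (-0.58) or to the spike-in probes (-0.45).

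**Figure D4:**
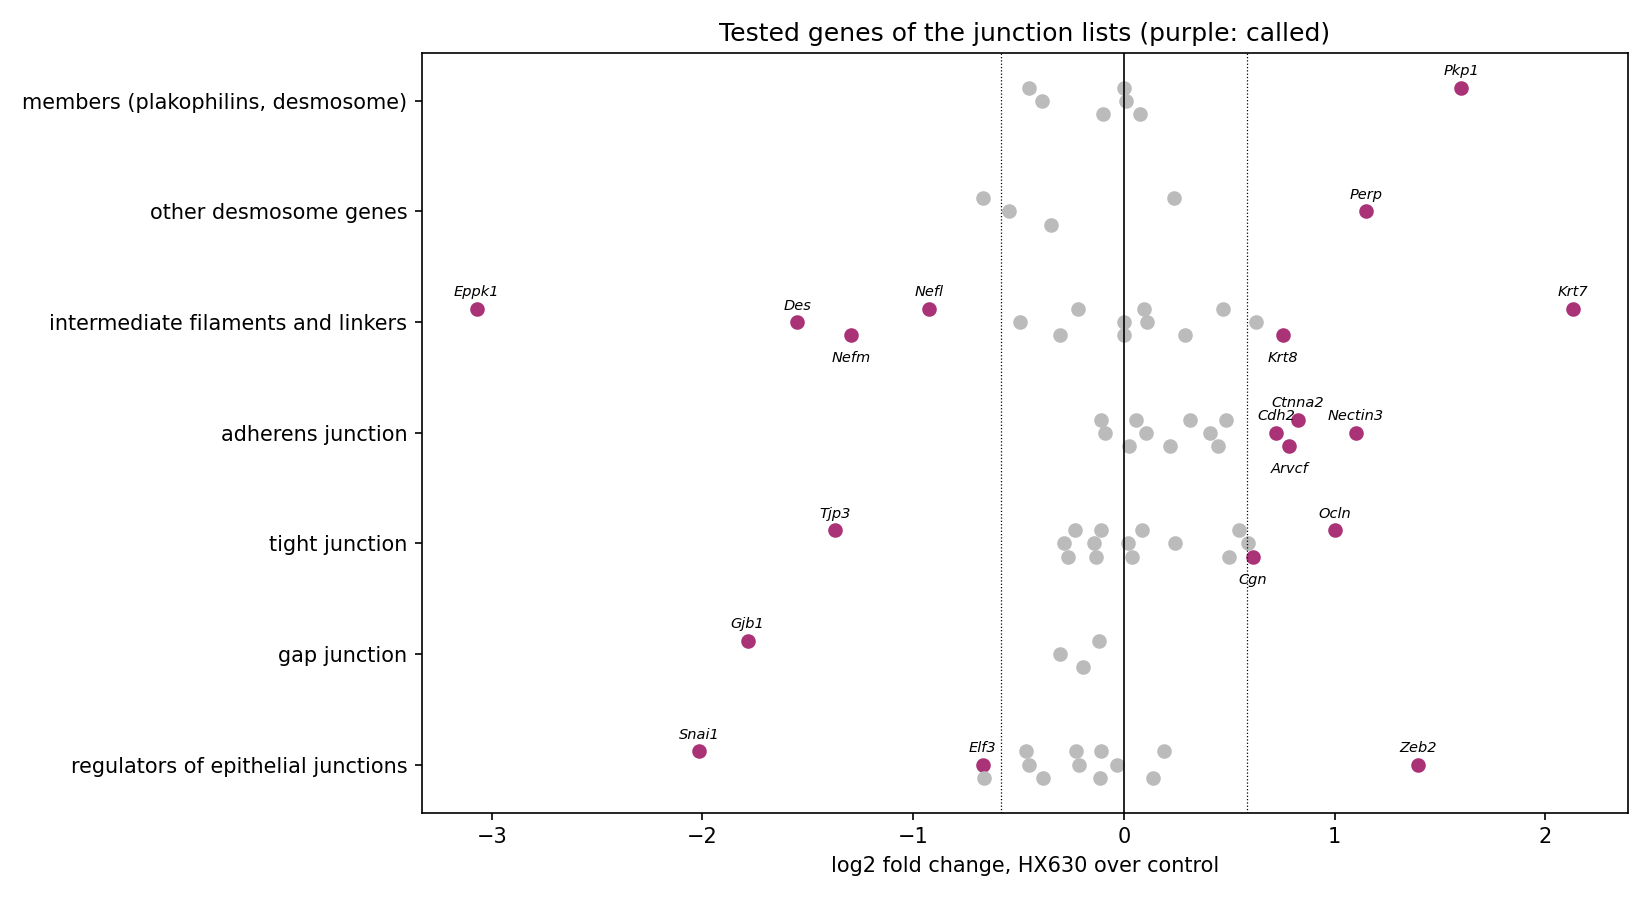
Log2 fold change, HX630 over control, of the 7 tested plakophilin and desmosome probes (top line) and of each tested gene of the 6 junction lists, by its brightest probe; purple points were called, gray points were not, and the dotted lines mark a fold change of 1.5. Points are staggered within a line for legibility only. Pkp1 and Perp are the desmosome genes called, at 1.60 and 1.15, and Eppk1 at -3.07 is the lowest point.

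Upstream sequences were available for 3 of the 8 genes, Pkp4, Dsp and Jup, in RefSeq's table of mouse promoters (GRCm38.p6). The upstream region of Dsp is shown because Dsp was the desmosome gene with the most replicated measurement, and the second of the Pkp4 start sites because it holds a motif. The motif searched, on both strands of the 250 bases before the start site, was CAGGTG, the E-box bound by the Snail and ZEB factors, whose genes Snai1 and Zeb2 were called in opposite directions. It was found in 17.2% of the 32851 promoters in the table. AGGTCA, the half-site of nuclear receptors such as the RXRs, was searched in the same way and was found in 14% of them. Neither was found in the Jup region or in that of the other Pkp4 start site. The sequences run 5′ to 3′ on the plus strand, in lower case with the E-box in capitals.
Dsp, chr13:38151044-38151293: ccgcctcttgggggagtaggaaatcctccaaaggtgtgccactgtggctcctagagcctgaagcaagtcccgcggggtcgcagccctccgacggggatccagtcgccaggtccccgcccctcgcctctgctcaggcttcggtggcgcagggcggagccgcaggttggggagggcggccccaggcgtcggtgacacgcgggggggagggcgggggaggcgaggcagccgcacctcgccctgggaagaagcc
Pkp4, chr2:59161619-59161868: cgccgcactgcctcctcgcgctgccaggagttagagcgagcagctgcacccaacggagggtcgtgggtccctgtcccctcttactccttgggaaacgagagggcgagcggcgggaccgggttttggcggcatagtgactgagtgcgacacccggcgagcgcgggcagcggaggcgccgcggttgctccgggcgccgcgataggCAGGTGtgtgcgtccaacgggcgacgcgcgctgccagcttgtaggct
The Pkp4 region held 1 E-box, at position -47 counted from the start site, and no AGGTCA. The Dsp region held neither motif. These matches describe the letters in this window and are not evidence that a factor binds there.

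The genes whose levels ran most like those of Pkp1 and of Dsp over the 8 arrays were looked up among 15318 other tested genes. For Pkp1 they were Sbk1, a kinase gene, with a Pearson r of 0.9986, Rasa4, which encodes a GTPase-activating protein for Ras (0.9984), and Pkdcc, which encodes a secreted kinase (0.9984). Their log2 fold changes were 0.82, 1.01 and 1.5, against 1.60 for Pkp1. For Dsp probe A_51_P101460 they were Tafa3 (r = 0.9973), Tmed9, which encodes a cargo receptor of the secretory pathway (0.9971), and Ripply1, which encodes a transcriptional repressor (0.9967). Their log2 fold changes were -0.64, -0.42 and -0.82. Because the arrays form separate control and HX630 clusters for these genes, the difference between the groups enters each r, which is given as a description with no test.

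Markers of other cell types were read in the same arrays, as the sum over a list of the linear signal divided by the 75th percentile. The 8 markers of stratified epithelium, the tissue in which Pkp1 is best known, summed to 8.92 to 10.1 on the control arrays and 6.76 to 7.61 on the HX630 arrays. Most of the sum came from Trp63, a transcription factor of basal epithelial cells, with a level of 2.91 ± 0.091 (SD, n = 4) in control cells and 2.44 ± 0.13 (SD, n = 4) with HX630, which was not called. Of 6 tested, 0 were called up, and Krt1, a keratin of the upper epidermis, was called down (log2 fold change -0.70), a call lost with scaling to the spike-in probes (-0.48). Lor (loricrin) and Krt10, the partner of Krt1, had log2 fold changes of 0.28 and 0.047, and Krt5 and Krt14, the keratin pair of the basal layer, had values of -0.22 and -0.0010. None of these 4 was called, and they and Trp63 were named after their values were seen. Ivl (involucrin) and Dsg3 were well above background on no array.

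The corticotroph list summed to 302 to 377 on the control arrays and 219 to 230 on the HX630 arrays. Pomc, with mean levels of 8.03 in control cells and 7.57 with HX630, made up most of this sum. Of its 7 tested genes 2 were called up, Crhr1, the receptor of corticotropin-releasing hormone (log2 fold change 1.11), and Neurod1, a transcription factor (0.72). Pcsk1, the convertase that cuts the ACTH precursor, was called down (-2.06), and Pomc, with -0.45, was not called (limma, adjusted p = 0.00241). Of the other pituitary hormone genes 4 of 7 were tested and Gh, growth hormone, was called down (-0.79, and lost with the spike-in scaling at -0.58), while Prl and Tshb were well above background on no array, and the list summed to 0.154 to 0.291 and 0.192 to 0.225.

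The fibroblast list summed to 0.109 to 0.130 on the control arrays and 0.116 to 0.164 on the HX630 arrays, with Dcn (decorin) called up among 4 tested of 6 (log2 fold change 1.04). The endothelial list, with 2 tested of 4, summed to 2.72 to 3.37 and 2.16 to 2.65, with Pecam1 called down (-0.59). The Dcn call was lost under 10 of 23 alternatives, with 0.16 under normexp background correction, and the Pecam1 call, close to the fold threshold, was lost under 7 of 23. Most of the endothelial sum came from Kdr, a receptor of VEGF, whose log2 fold change of -0.36 was not called and which was named after its values were seen. The leukocyte list, with 4 tested of 5, summed to 3.01 to 3.63 and 1.45 to 1.66, with Cd3e (-1.44) and Csf1r (-0.72, and lost with the spike-in scaling at -0.50) called down. The part of these markers in the results for Pkp1, Dsp and Dsg2 was not tested.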

How the data were processed

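Total RNA of 4 control and 4 HX630-treated AtT20 samples was labeled with Cy3 and hybridized to 8 arrays. The authors deposited the scanner output of Feature Extraction 10.7.3.1 for each array, in which the processed intensity of a spot is background-subtracted and carries no scaling between arrays. They also deposited a table of log2 values, made in GeneSpring, which differed by at most 0.00125 from the log2 processed intensity minus the 75th percentile of the array.

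The analysis used limma 3.58.1 in R 4.3.3. Each array has 44397 spots. The 1377 control spots were dropped together with outlier-flagged spots, the 75th percentile of each array was subtracted on the log2 scale, and spots of a probe were averaged. The 75th percentile intensity was 1335 to 1863 on the control arrays and 1803 to 1899 on the HX630 arrays. Probes well above background on at least 4 arrays entered one fit of all 8 arrays (lmFit, then eBayes) with no block, and p-values were adjusted over all 28552 probes. Symbols were taken from RefSeq accessions (GRCm38.p6), which gave 26055 probes with a symbol. The number of arrays limits the precision. On simulated data with 200 of 28542 probes of this comparison changed by 1 on the log2 scale, 74% were recovered, 0 in the wrong direction, with 1 false call. In the data, 20.2% of the tested probes were higher and 25.4% lower at an adjusted p below 0.01 in limma. That share is far larger than the one simulated and eases the adjusted threshold, so the 74% does not carry over to this comparison.

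The 8 genes, the lists and the tests were chosen with earlier results of these data known. Named were all probes of the 8 genes, in each junction list up to 4 called genes with the largest change, Pomc and the called cell type markers, the 3 genes most correlated with Pkp1 and with Dsp, and those said to be named after their values were seen. Alternatives were other scalings, filters, background corrections, variance models, thresholds and tests, a block for the replicate number, and leaving out each array. Normexp used the median spot intensity with an offset of 16.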

Additional observations from a re-analysis of the deposited data

Results flagged for a closer look

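In 4 of 70 groups of 4 arrays examined, 1 array stood apart from the other 3, its gap to the nearest of them being close to the whole range of the group. Chance alone gives about 1 in 20 such groups. None of the 4 belonged to a tested probe of the plakophilin and desmosome genes. The 3 untested probes of these genes were not examined. Among them, Dsc2 had HX630 array 1 at -7.77 and the other HX630 arrays at -9.50, -9.38 and -9.53, all below the detection limit. For Krt7 with HX630 the gap was 0.963 of the range (array 1 at 4.32, the others at 4.42 on average). For Elf3 in control cells it was 0.895 (array 1 at 0.13 against 0.46), for Gh with HX630 0.857 (array 4 at -5.64 against -5.95), and for Krt1 with HX630 0.884 (array 1 at -3.39 against -3.45).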

How the results depend on the processing

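Pkp1 was called up under all 23 alternatives, with a log2 fold change of 0.87 to 1.82 and an adjusted p of at most 0.00346 in limma or in the methods' t-test on the same values. Plakophilin and desmosome probes called down, 0 in the report, were 2 without the fold threshold (Dsp and Dsg2 probe A_52_P88091) and 1 with no filter on dim probes (the dim Dsp probe). Over all probes, 4146 were called up and 1907 down with scaling to the spike-in probes, 1355 up with normexp, and 5763 up and 7245 down without the fold threshold, against 2131 and 3184. Junction list genes called were 17 up with the spike-in scaling, and 20 up and 19 down without the fold threshold, against 10 and 8. The share of calls that were higher with HX630 was 40.1%, and 51.6% with the array median, 49.8% with quantile normalization and 68.5% with the spike-in probes. These scalings moved the median of all tested probes from -0.056 to 0.032, 0.020 and 0.16. The sign turned for 4 uncalled probes. Dsg2 probe A_51_P249848 was at -0.081, Pkp3 at -0.033 and Jup at -0.16 with normexp, and Pkp4 was at 0.12 with the spike-in probes. With normexp the median of all tested probes was -0.14. Relative to it, Dsg2 probe A_51_P249848 was at 0.055, Pkp3 at 0.10 and Jup at -0.019. Pkp4 relative to the median was at -0.043 with the spike-in probes. With each array left out, Pkp3 ranged from -0.072 to 0.16 and Jup from -0.057 to 0.064. The causes were not tested. Dim probes such as those of Pkp2 and Dsc2 limit what can be said of them.

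With the replicate number as a replicate block, 2210 probes were called up and 3345 down, 1 and 0 of them of the plakophilin and desmosome genes, and the adjusted p of Pkp1 was 0.00011 in limma. Deviations of same-numbered arrays had correlations of 0.52, -0.0093, 0.24 and 0.38, and 5 of 8 arrays correlated best with their own number. What lies behind these correlations was not tested. The numbers were not taken to pair the samples, since the labels do not say that a number marks a shared culture or day and 1 of the pairs did not deviate together.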
